A study of Mus musculus with 60 samples.

Results

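The nuclear genes of oxidative phosphorylation were described across the chromatin of mouse dorsal root ganglia after nerve or spinal injury. Genes were taken by symbol from the RefSeq table of protein-coding genes on the named nuclear chromosomes: those starting with Nduf, Uqcr, Atp5, Cox4i, Cox5, Cox6, Cox7 or Cox8, and Sdha, Sdhb, Sdhc, Sdhd and Cycs. This gave 97 of 21887 genes. They comprised 36 subunits of complex I, 8 of its assembly factors (Ndufaf), 4 subunits of complex II, 8 of complex III, cytochrome c (Cycs), 12 genes of complex IV, 17 of complex V, and 8 isoforms known from muscle, testis, lung or hypoxic cells (Cox4i2, Cox6a2, Cox6b2, Cox7a1, Cox7b2, Cox8b, Cox8c and Ndufa4l2). The other 3 were Ndufab1, the mitochondrial acyl carrier protein, and Ndufb4b and Ndufb4c, short gene records of 471 and 485 bp named like Ndufb4. They may be near-copies of it, and the absence of peaks there is uncertain because reads may not place uniquely.

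Complexes I to IV pass electrons from NADH and succinate to oxygen. Complexes I, III and IV pump protons across the inner mitochondrial membrane, and complex V, the ATP synthase, makes ATP from the returning protons. Most subunits are encoded in the nucleus, expressed in nearly all cells and read from CpG-rich promoters that NRF1, ETS-family factors such as GABP, and YY1 are known to bind. Sensory neurons have long axons with a high demand for ATP, and axon regrowth is known to depend on mitochondria. The marks H3K9ac and H3K27ac are typical of active promoters and enhancers, H3K27me3 of genes held silent by Polycomb, and ATAC-seq reads where a transposase can reach the DNA.

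All mice were C57BL/6, 6 to 8 weeks old, and L4 to L6 ganglia were taken 24 hours after surgery. The surgeries were sciatic nerve axotomy (SNA) with a sham operation on the nerve (Sham) as its control, and dorsal column axotomy of the spinal cord (DCA) with laminectomy alone (Lam) as its control, so every group had undergone an operation and none was untouched. The 60 samples comprised, per histone mark and surgery, 2 ChIP and 2 input samples from 10 pooled mice apiece, and 3 single-mouse ATAC samples per surgery. Peaks came as 16 deposited lists, 1 per assay and group of mice, in which the authors had pooled the replicates. There is thus no replicate error, no difference between lists has a test, and the depth of a list is unknown.

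A gene-end peak is a deposited peak with at least 1 bp within 1 kb of either end of a gene record, and a body peak lies inside the gene more than 1 kb from both ends. Where a gene had several gene-end peaks, the strongest by the authors' −log10 p is described, with its fold enrichment over the background of the authors' peak caller and its percentile within its own list (0 the weakest, 100 the strongest peak). Fold enrichment and percentile describe a peak within its list and were not compared between lists. The list sizes differed, with 50332, 74652, 50667 and 89647 H3K9ac peaks and 43803, 75824, 67311 and 46489 H3K27ac peaks in Sham, SNA, Lam and DCA. Values given as 4 numbers follow this order throughout. The tissue was checked at marker genes. All 8 sensory neuron markers had an ATAC gene-end peak in every list, but H3K9ac peaks at 0, 1, 0 and 2 of them and H3K27ac peaks at 1 in each list, and H3K27me3 peaks at 5, 6, 6 and 3. Of 6 markers of satellite glia and Schwann cells, 5 had an H3K9ac peak in every list and 5, 6, 6 and 4 an H3K27ac peak. Isl1, Avil, Scn10a and Nefh had no acetylation peak in any list. The ganglion is a mixed tissue, and which cells carried the acetylation at the genes below cannot be told apart in these lists.

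The promoters show what these genes share in sequence. In the RefSeq promoter table (GRCm38.p6, 250 bases before and 50 bases from the annotated start), 79 of the 97 genes had an entry. The following upstream sequences, written 5′ to 3′ on the gene's strand up to the base before the start, are of genes with no other gene end within 1 kb. Capitals mark GCGCANGCG, the letters searched for NRF1, and CCGGAAG, those for the ETS family, on either strand. Cycs, Cox6a1 and Ndufb4 carry NRF1 letters, Uqcr11 carries ETS letters and, across its start and so partly beyond the bases shown, NRF1 letters, Cox7c has neither although its ATAC peak was among the strongest, and Cox7b2, a testis isoform, has neither and had 1 gene-end peak in the 12 lists of H3K9ac, H3K27ac and ATAC. They were chosen after their letters and peaks were seen.
Cycs (chr6:50566570-50566819, minus strand): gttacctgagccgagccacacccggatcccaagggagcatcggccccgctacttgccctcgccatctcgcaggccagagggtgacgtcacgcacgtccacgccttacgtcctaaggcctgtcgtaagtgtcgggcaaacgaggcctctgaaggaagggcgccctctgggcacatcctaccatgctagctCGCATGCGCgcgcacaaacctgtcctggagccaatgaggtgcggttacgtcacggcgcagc
Cox6a1 (chr5:115348959-115349208, minus strand): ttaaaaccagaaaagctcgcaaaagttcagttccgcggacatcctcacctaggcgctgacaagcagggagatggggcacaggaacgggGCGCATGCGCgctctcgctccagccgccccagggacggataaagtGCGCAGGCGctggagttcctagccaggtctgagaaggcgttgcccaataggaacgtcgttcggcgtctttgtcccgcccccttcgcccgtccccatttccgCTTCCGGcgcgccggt
Ndufb4 (chr16:37654369-37654618, minus strand): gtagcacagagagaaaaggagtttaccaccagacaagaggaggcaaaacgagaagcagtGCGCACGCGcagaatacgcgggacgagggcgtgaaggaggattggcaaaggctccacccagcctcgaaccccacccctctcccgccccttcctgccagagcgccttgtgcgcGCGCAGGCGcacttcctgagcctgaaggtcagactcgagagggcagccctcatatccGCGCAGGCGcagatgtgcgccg
Uqcr11 (chr10:80406822-80407071, minus strand): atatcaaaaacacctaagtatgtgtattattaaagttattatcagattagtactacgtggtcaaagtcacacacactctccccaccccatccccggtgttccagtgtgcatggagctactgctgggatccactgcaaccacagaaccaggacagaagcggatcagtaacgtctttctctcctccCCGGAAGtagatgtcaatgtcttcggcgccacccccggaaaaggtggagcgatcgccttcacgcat
Cox7c (chr13:86046796-86047045, minus strand): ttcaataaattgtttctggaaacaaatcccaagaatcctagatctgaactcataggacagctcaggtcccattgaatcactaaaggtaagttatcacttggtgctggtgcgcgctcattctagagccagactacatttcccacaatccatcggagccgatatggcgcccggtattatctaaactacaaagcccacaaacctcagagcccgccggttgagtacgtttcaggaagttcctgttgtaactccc
Cox7b2 (chr5:71548206-71548455, minus strand): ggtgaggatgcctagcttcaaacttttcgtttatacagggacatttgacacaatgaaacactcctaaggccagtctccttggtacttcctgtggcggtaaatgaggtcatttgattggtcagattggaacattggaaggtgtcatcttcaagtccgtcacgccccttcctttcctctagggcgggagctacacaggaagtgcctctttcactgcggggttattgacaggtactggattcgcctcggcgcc

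The letters AAGATGGCG, searched for YY1, lay mostly just inside the gene. Of 8 matches, 7 began 10 to 35 bases after the annotated start, and that of Atp5j, the F6 subunit of complex V, began 88 bases before it. The letters contain ATG, and whether these are the start codons was not examined. The sites of 4 genes are shown with 10 bases on either side, the letters in capitals.
Atp5j2 (chr5:145191500-145191528, minus strand): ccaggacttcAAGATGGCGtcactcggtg
Ndufc1 (chr3:51408915-51408943, minus strand): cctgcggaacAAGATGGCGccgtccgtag
Ndufs7 (chr10:80249463-80249491, plus strand): ggccgaggccAAGATGGCGgcgctggcgg
Ndufaf8 (chr11:120098934-120098962, plus strand): ggcagggcccAAGATGGCGgcgccctcga

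NRF1 letters were found in 23 of the 79 promoters (29.1%, against 9.63% of 17492 genes with an entry), ETS letters in 19 (24.1% against 12.9%) and YY1 letters in 8 (10.1% against 2.14%). At least 1 of the 3 was present in 41 (51.9% against 21.8%). The letters of general promoter elements had shares nearer to those of all genes: CCAAT was in 35 (44.3% against 42.3%), the SP1 box GGGCGG in 36 (45.6% against 49.2%) and TATAAA in 8 (10.1% against 14.8%). All letters were searched on both strands. GCGCANGCG can overlap its own reverse complement, and among different motifs only an ETS and an SP1 match of Ndufs3 overlapped. Both NRF1 and ETS letters occurred in Atp5h, Atp5k, Atp5l, Cox6a1, Sdhd and Uqcr11. None of the 4 isoforms with an entry (Cox6b2, Cox7a1, Cox7b2 and Cox8b) had NRF1, ETS or YY1 letters. The median GC content was 59.0% in 80 promoters of the other genes, 50.8% in those of the isoforms and 56.3% over all promoters. The median number of CpGs per promoter was 20, 8.5 and 13 in the same order. The letters of NRF1, ETS and YY1 hold CpGs themselves, and the shares were not matched for composition. A match describes the letters only and was not tested as a binding site.

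**Figure D1:**
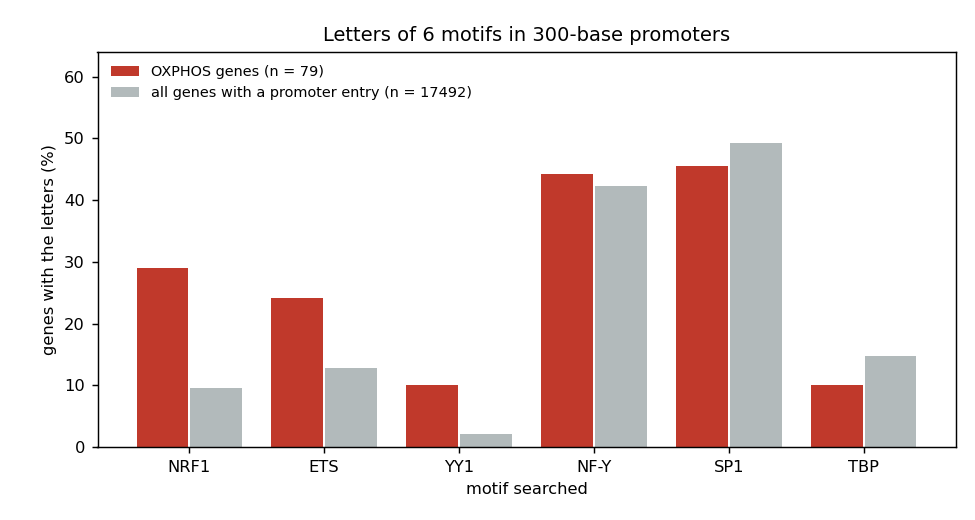
Share of genes (%) whose 300-base promoter holds the letters of each motif on either strand, for 79 oxidative phosphorylation (OXPHOS) genes and 17492 genes with an entry; NF-Y stands for the CCAAT box and TBP for the TATA box. The shares are higher in the OXPHOS genes for NRF1 (29.1% and 9.63%), ETS (24.1% and 12.9%) and YY1 (10.1% and 2.14%) and near those of all genes for the rest.

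Most of the genes carried acetylation and open chromatin at an end. H3K9ac, H3K27ac and ATAC gene-end peaks occurred together at 67, 79, 80 and 77 of the 97 genes. The shares of all genes were 34.5%, 44.6%, 43.6% and 40.7%. H3K9ac gene-end peaks were present at 84, 87, 86 and 91 of the 97 genes in Sham, SNA, Lam and DCA, that is 86.6%, 89.7%, 88.7% and 93.8%, against 49.1%, 50.6%, 49.7% and 59.3% of all genes. H3K27ac peaks were present at 72, 84, 86 and 78, against 40.3%, 50.9%, 50.9% and 42.7% of all genes. ATAC peaks were present at 88, 89, 89 and 90, against 69.4%, 71.2%, 69.5% and 70.7%. H3K27me3 peaks were few, at 10, 5, 15 and 6 genes, against 28.6%, 23.0%, 33.4% and 12.3% of all genes. All 12 lists of H3K9ac, H3K27ac and ATAC had a gene-end peak at 58 of the 97 genes (59.8%, against 27.5% of all genes), and only Cox7a2, Ndufb4b and Ndufb4c had none in any of them, against 20.2% of all genes.

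**Figure D2:**
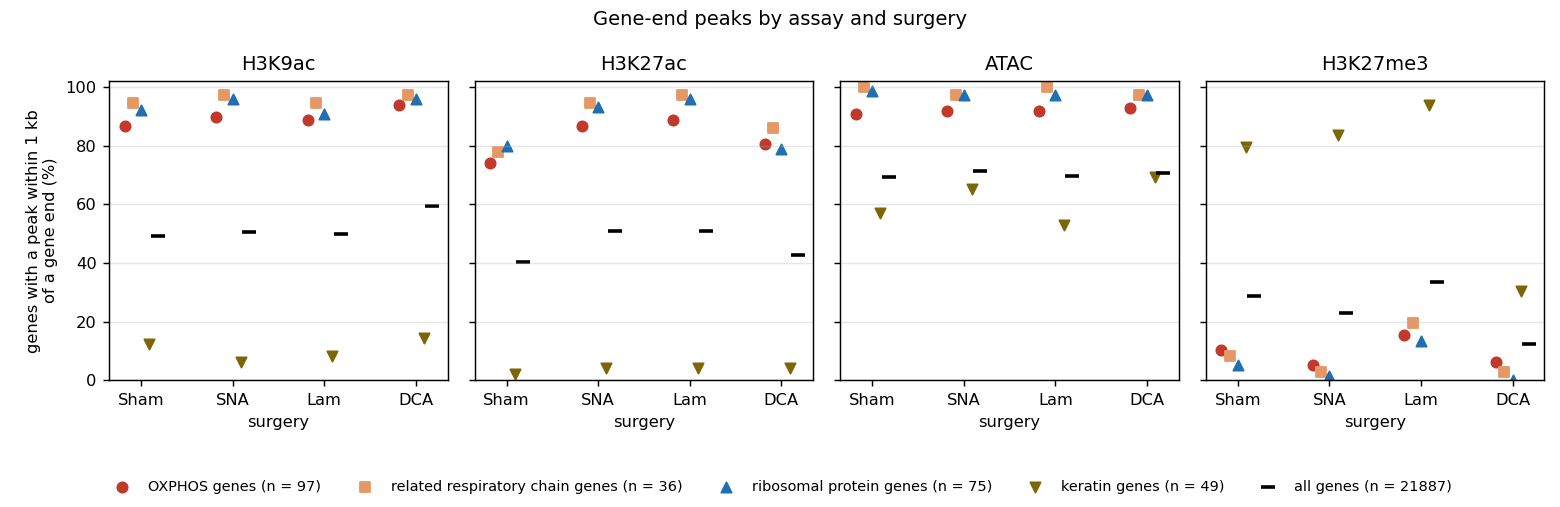
Share of genes (%) with a peak within 1 kb of a gene end, by assay (panels) and surgery (x axis), for the 97 OXPHOS genes, 36 related respiratory chain genes, 75 cytosolic ribosomal protein genes, 49 keratin genes and all 21887 genes. In the acetylation and ATAC panels the OXPHOS genes lie with the ribosomal protein genes above all genes and the keratin genes, and for H3K27me3 they are lower than both.

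Cytosolic ribosomal protein genes, which are also expressed in nearly all cells, had H3K9ac peaks at 69, 72, 68 and 72 of 75 genes and H3K27ac peaks at 60, 70, 72 and 59, so the H3K27ac count was also lower in Sham and DCA there. Keratin genes, mostly silent in ganglia, had H3K9ac peaks at 6, 3, 4 and 7 of 49 and H3K27me3 peaks at 39, 41, 46 and 15. Of 36 genes of the respiratory chain outside the symbols used here, among them Cyc1, the cytochrome c1 subunit of complex III, and assembly factors such as Surf1 and Bcs1l, 34, 35, 34 and 35 had an H3K9ac peak and 28, 34, 35 and 31 an H3K27ac peak. Of 13 citrate cycle genes, 9, 12, 12 and 9 had an H3K27ac peak and all 13 an ATAC peak in every list.

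Genes of the regulators known for these promoters were themselves mostly open. Of 12 such genes, 11 had an ATAC gene-end peak in each list, 7, 8, 9 and 11 an H3K9ac peak and 9, 9, 8 and 9 an H3K27ac peak. Nrf1, Gabpa, Esrra and Tfam, the mitochondrial transcription factor, had peaks of both marks and ATAC in all 4 lists. Yy1 had ATAC peaks in 4 lists, H3K9ac in 2 and H3K27ac in none, and Ppargc1a, the coactivator PGC-1 alpha, had H3K9ac peaks in 2 lists and H3K27ac in 3. Gabpb1 had none in any list. An end of Gabpa lies within 1 kb of Atp5j, so peaks there cannot be assigned to either gene.

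H3K9ac and ATAC peaks were also strong within their lists. A gene-end peak among the strongest 10% of its H3K9ac list was present at 52, 57, 47 and 63 of the 97 genes, against 17.6%, 20.5%, 17.1% and 31.9% of all genes. For ATAC this held for 72, 78, 74 and 74, against 46.5%, 49.8%, 47.3% and 48.9%. For H3K27ac it held for 2, 46, 18 and 9, against 2.4%, 19.9%, 13.1% and 4.9% of all genes. The Sham share was near that of all genes, and the SNA, Lam and DCA shares of 47.4%, 18.6% and 9.28% were above those of all genes. The median percentile of the H3K27ac gene-end peaks was 57.3, 90.6, 78.9 and 76.0 at the 97 genes and 59.7, 85.9, 79.1 and 68.3 at all genes with such a peak. The few strong Sham peaks were those of Ndufc2 (fold 8.44, percentile 90.3) and Cox5a (fold 19.7, percentile 99.1). The Cox5a peak at chr9:57516750-57517284 overlapped no ATAC peak and lay at the lower-coordinate end of the record (57517328 to 57532427), upstream of the annotated start at 57521232. Of the H3K27ac gene-end peaks of the 97 genes, 63 of 72, 79 of 84, 79 of 86 and 73 of 78 overlapped ATAC peaks of the matching list. These were 87.5%, 94.0%, 91.9% and 93.6%, near the 84.6%, 91.1%, 88.9% and 87.8% of all genes with such a peak.

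**Figure D3:**
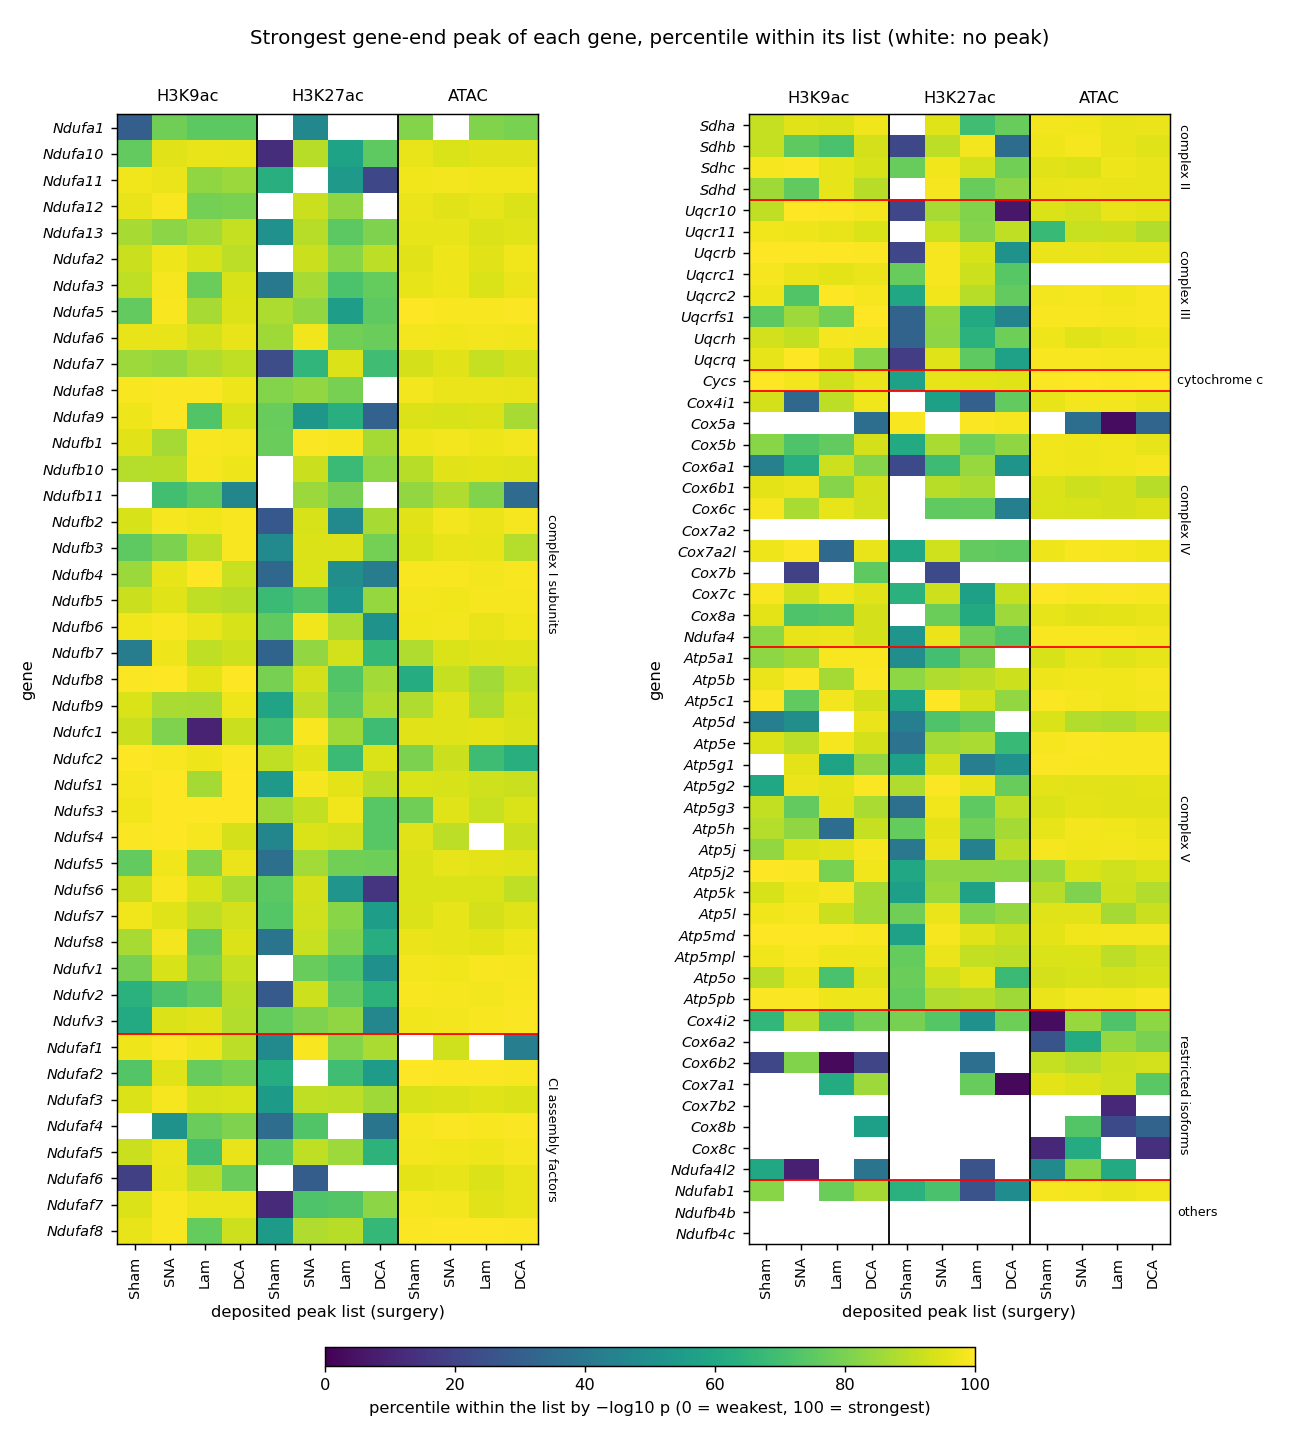
Percentile within its own list (colour) of the strongest gene-end peak of 96 of the 97 genes (rows, by role) in the 12 lists of H3K9ac, H3K27ac and ATAC (columns); white marks no gene-end peak. ATAC is near the top of its lists for most genes, H3K27ac is most often white in Sham, and the restricted isoforms are mostly white or weak.

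In complex I, the NADH dehydrogenase, 35, 36, 36 and 36 of 36 subunit genes had an H3K9ac peak, 30, 35, 35 and 32 an H3K27ac peak and 36, 34, 35 and 36 an ATAC peak. Ndufs1, the largest iron-sulphur subunit, had H3K9ac folds of 6.11, 8.51, 3.27 and 9.46 at percentiles 98.5, 99.7, 86.6 and 99.9. Its H3K27ac peak stood at percentiles 54.3, 98.5, 96.1 and 89.7 and its ATAC peak at 94.5, 94.0, 92.7 and 92.0. Ndufv1, which binds the NADH that feeds the chain, had no H3K27ac peak in Sham at a gene end, the nearest lying 5277 bp away, and in SNA, Lam and DCA it had one at percentiles 76.8, 72.5 and 50.1. Its ATAC peak stood between percentiles 98.0 and 98.8 in all 4 lists. Ndufs3, a core subunit, was among the 5 strongest genes for both acetyl marks, with H3K9ac percentiles of 98.0, 100.0, 99.7 and 99.9 and H3K27ac percentiles of 85.8, 90.8, 98.0 and 74.1. Its ATAC peak stood at percentiles 78.2, 95.1, 91.8 and 94.2.

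Some complex I genes lacked peaks in single lists. Ndufa1, on the X, had an H3K27ac peak in SNA only (fold 4.16, percentile 46.8) and an ATAC peak in every list but SNA. Ndufb11, also on the X, had H3K9ac peaks in SNA, Lam and DCA and H3K27ac peaks in SNA and Lam. The 8 assembly factors, which build complex I and are not part of it, had H3K9ac peaks at 7, 8, 8 and 8 and H3K27ac peaks at 7, 7, 6 and 7. Ndufaf8 and Ndufaf2 were among the 5 genes with the strongest ATAC peaks, with lowest percentiles of 99.3 and 98.9 over the 4 lists.

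In complex II, succinate dehydrogenase, all 4 genes had H3K9ac and ATAC peaks in every list, and H3K27ac peaks at 2 genes in Sham and all 4 in the other lists. Sdha, the flavoprotein that oxidizes succinate, had no H3K27ac peak in Sham and peaks of fold 6.11, 3.75 and 4.78 in SNA, Lam and DCA. Its H3K9ac peak stood between percentiles 91.2 and 98.0 and its ATAC peak between 96.8 and 98.1 in all 4 lists. Sdhb, the iron-sulphur subunit, had H3K27ac percentiles of 21.7, 90.2, 98.2 and 35.2. Sdhd, a membrane anchor, had none in Sham, and in SNA a peak of fold 8.88 at percentile 98.4 (chr9:50603884-50604542). An end of Timm8b, a mitochondrial import gene, lies within 1 kb of it.

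Complex III, which passes electrons from ubiquinol to cytochrome c, had H3K9ac peaks at all 8 genes in every list and H3K27ac peaks at 7, 8, 8 and 8. Uqcrb had the strongest H3K9ac peaks of the 97 genes by mean percentile, with folds of 8.38, 8.77, 7.03 and 6.94 and percentiles from 99.2 to 100.0. Uqcrc1, a core protein, had H3K9ac peaks at percentiles 98.5, 97.0, 95.7 and 96.9 and H3K27ac peaks at 76.6, 98.8, 92.4 and 74.2, but no ATAC gene-end peak in any list. Its nearest ATAC peak lay 3573, 3544, 3562 and 3551 bp from a gene end. Its promoter holds NRF1 letters from 6 bases after the start. Uqcrfs1, the Rieske iron-sulphur protein, had ATAC percentiles of 99.1, 99.0, 98.6 and 98.9 and H3K27ac percentiles of 31.7, 83.3, 60.9 and 45.1.

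Cycs, cytochrome c, carries electrons to complex IV and is also known for its role in apoptosis. It had the strongest ATAC peaks of the 97 genes, with folds of 7.80, 8.49, 7.96 and 7.51 and a percentile of 99.6 in every list. The summit lay 78, 85, 65 and 76 bp before the start, and the NRF1 letters shown in its promoter begin 61 bases before it. Its H3K9ac peak stood at percentiles 99.9, 98.3, 93.0 and 96.9 and its H3K27ac peak at 57.1, 96.2, 95.8 and 95.2.

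In complex IV, cytochrome c oxidase, 9, 10, 9 and 11 of 12 genes had an H3K9ac peak, 6, 10, 10 and 9 an H3K27ac peak and 9, 10, 10 and 10 an ATAC peak. Cox4i1, the widely expressed form of subunit IV, had no H3K27ac peak in Sham and peaks at percentiles 56.8, 30.8 and 75.9 in SNA, Lam and DCA. Its ATAC percentiles were 96.7, 98.2, 98.1 and 97.1. Cox6c likewise had none in Sham and peaks of fold 4.09, 5.40 and 4.16 in the others, with H3K9ac percentiles of 98.5, 87.2, 96.3 and 93.3. Cox7c, a small subunit, was among the 5 strongest ATAC genes, at percentiles 99.7, 99.2, 99.3 and 99.0, with none of the NRF1, ETS or YY1 letters. Ndufa4, named after complex I but known as a subunit of complex IV, had ATAC percentiles of 99.2, 99.2, 99.0 and 98.2.

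For some complex IV genes the gene record hides the promoter. The annotated starts of Cox7a2 and Cox5a lie more than 1 kb from both ends of their records, as do those of Atp5d and Atp5g3. At the start of Cox7a2, peaks of all 12 active lists were present, with ATAC folds of 5.99, 5.80, 4.44 and 4.95 and H3K9ac folds of 5.44, 6.74, 5.21 and 3.93. At the start of Cox5a they were also present in all 12 lists, with ATAC folds of 4.19, 5.20, 4.80 and 4.39 and H3K27ac folds of 3.80, 5.86, 5.64 and 5.09. The Cox5a H3K27ac gene-end peak that was in Sham and not in SNA had its summit at -4218 bp from the annotated start. Cox7b, on the X, had no ATAC gene-end peak in any list.

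In complex V, all 17 genes had an ATAC peak in every list, 16, 17, 16 and 17 an H3K9ac peak and 17, 17, 17 and 14 an H3K27ac peak, so the H3K27ac count was lower in DCA and not in Sham. Atp5b, the catalytic beta subunit, had H3K9ac percentiles of 97.2, 99.2, 86.6 and 99.4 and H3K27ac percentiles of 82.8, 88.0, 89.7 and 92.3. Atp5a1, the alpha subunit, had H3K27ac peaks at percentiles 49.1, 70.0 and 79.6 in Sham, SNA and Lam and none in DCA, where the nearest lay 52620 bp from a gene end. Its H3K9ac peak in DCA stood at percentile 99.2. Atp5g2, a gene for the c-ring subunit, Ndufb1 of complex I, Atp5mpl and Atp5b were, with Ndufs3, the 5 strongest H3K27ac genes by mean percentile. Atp5md was the second for H3K9ac, with percentiles from 98.9 to 100.0.

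The 8 isoforms formed the exception. They had H3K9ac peaks at 3, 3, 3 and 5, H3K27ac peaks at 1, 1, 4 and 2, ATAC peaks at 6, 7, 7 and 6, and H3K27me3 peaks at 2, 0, 6 and 1. The median percentile of their ATAC peaks was 36.7, 82.1, 72.4 and 77.2, against 96.2, 96.3, 96.1 and 96.4 over the 97 genes. Cox4i2, known from lung and oxygen sensing, had peaks of both acetyl marks in all 4 lists, at H3K27ac percentiles of 79.4, 73.5, 51.5 and 77.8. Cox6a2 and Cox7a1, known from heart and skeletal muscle, differed: Cox6a2 had no acetylation peak in any list, and Cox7a1 had both marks in Lam and DCA only (H3K9ac percentiles 61.7 and 85.3, H3K27ac 76.9 and 2.31). Cox8b, another muscle form, had an H3K9ac peak in DCA only (percentile 56.4) and ATAC peaks in every list but Sham. Of 5 skeletal muscle markers, 0, 0, 1 and 2 had an H3K9ac peak and 1, 0, 0 and 0 an H3K27ac peak, and Acta1, Myh4 and Myl1 had neither in any list. Whether muscle tissue had a part in these peaks was not tested. Cox7b2 and Cox8c, known from testis, had no acetylation peak in any list, and Cox6b2, also known from testis, had H3K9ac peaks in all 4 lists at percentiles 21.3, 81.0, 2.41 and 20.8. Ndufa4l2, known from hypoxic cells, had H3K27ac in Lam only (percentile 25.7) and H3K9ac in Sham, SNA and DCA (percentiles 59.9, 8.70 and 38.4). Its ATAC peak was present in every list but DCA. Cox8c had ATAC peaks in every list but Lam, and Cox7b2 in Lam only, at the gene end far from its start (fold 1.70). An end of another gene lies within 1 kb of Cox6a2 (Itgad), Cox6b2 (Fam71e2), Cox7a1 (Capns1), Cox8b (Psmd13) and Ndufa4l2 (Stac3 and Shmt2). Peaks near those ends cannot be assigned to the isoform or to its neighbour.

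The comparison of each injury with its control asked whether the acetylation or accessibility at these genes differed. For H3K9ac, 4 genes had a gene-end peak in SNA and not in Sham (5.44% of all genes) and 1 the reverse (3.86%). The 4 were Atp5g1, a c-ring gene (fold 6.24, percentile 96.0), Ndufb11, Ndufaf4 and Cox7b, and the 1 was Ndufab1 (fold 4.33). In DCA and not in Lam there were 5 (10.2% of all genes), Atp5d (fold 6.83, percentile 97.2), Cox7b, Cox8b, Ndufa4l2 and Cox5a, and 0 the reverse (0.594%). Within 1 kb of the annotated starts of Atp5d and Cox5a, H3K9ac peaks were present in all 4 lists, at folds of 3.40 and 3.37 in Lam, so neither was gained at its start. With annotated starts counted beside the gene ends, 3 genes were gained in DCA. Between the controls, 4 were in Lam and not in Sham (5.35%) and 2 the reverse (4.7%), namely Atp5g1, Ndufb11, Ndufaf4 and Cox7a1 against Atp5d and Ndufa4l2. The gained shares after injury, 4.12% and 5.15% of the 97 genes, lay below those of all genes. Most of the 97 already had a peak in the control. Of the 13 without one in Sham, 30.8% gained it in SNA (10.7% of all such genes) and 30.8% in Lam (10.5%). Of the 11 without one in Lam, 45.5% gained it in DCA (20.2%). These shares thus rest on few genes. Cox7b was the only gene with an H3K9ac peak after both injuries and in neither control, at percentiles 19.8 in SNA and 75.0 in DCA, a pattern of 1.67% of all genes. The nearest H3K9ac peaks in Sham and Lam lay 3995 and 3189 bp from a gene end. With peaks of q at most 0.05 only, the genes gained in SNA numbered 10, those gained in Lam against Sham 8 and those lost in SNA 2. With lists cut to equal size, 3 were gained in DCA and 1 was lost.

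For ATAC, 3 genes were present in SNA and not in Sham (5.51% of all genes), 2 the reverse (3.75%), 3 in DCA and not in Lam (4.96%), 2 the reverse (3.82%), 3 in Lam and not in Sham (4.76%) and 2 the reverse (4.66%). The 3 comparisons thus gave the same counts. Of the few genes without a peak in the second list, 9, 8 and 9 in number, 33.3%, 37.5% and 33.3% gained one in SNA, DCA and Lam. The shares of all such genes were 18%, 16.3% and 15.6%. Ndufaf1, an assembly factor, was the only gene with an ATAC gene-end peak after both injuries and in neither control, with folds of 3.12 in SNA (percentile 92.9, chr2:119662592-119662964) and 1.96 in DCA (percentile 42.8). Its nearest ATAC peaks in Sham and Lam lay 1927 and 2064 bp from a gene end. The pattern was that of 1.06% of all genes. Cox8b and Cox5a were gained in SNA and also in Lam against Sham, but their strongest peaks lay at opposite ends of the records. For Cox8b they were chr7:140898914-140899370 in SNA and chr7:140900919-140901350 in Lam. For Cox5a they were chr9:57516781-57516988 in SNA and chr9:57531508-57531878 in Lam (percentile 3.18). Within 1 kb of the annotated start of Cox5a, ATAC peaks were present in all 4 lists, so it was not gained at its start. Ndufa1 (fold 2.39 in Sham) was lost in SNA. Ndufs4, a complex I subunit, had ATAC folds of 3.72, 2.79 and 2.79 in Sham, SNA and DCA and no gene-end peak in Lam. With peaks of q at most 0.05 only, 5 genes were gained in SNA and 5 in DCA, and 1 was lost in each.

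For H3K27ac the counts were larger. In SNA and not in Sham there were 15 genes (15.5%, against 13.5% of all genes) and 3 the reverse (2.83%). In DCA and not in Lam there was 1 (2.4%), Ndufaf4, and 9 the reverse (10.6%). Between the controls there were 15 in Lam and not in Sham (13.0%) and 1 the reverse (2.38%), Ndufaf4. The shares were near those of all genes, and the control surgeries differed as much as SNA and Sham did. SNA against Sham and Lam against Sham share the Sham list, and DCA against Lam and Lam against Sham share the Lam list. The 15 gained in SNA were 60.0% of the 25 without one there, against 22.5% of all genes without one. The same share of the 25, 60.0%, was gained in Lam against Sham (21.7% of all genes without one). Of the 86 genes with a peak in Lam, 10.5% lost it in DCA, against 20.8% of all genes with one. In a window of 5 kb the genes gained in SNA numbered 8, those lost in DCA 5 and those gained in Lam against Sham 8. With lists cut to equal size, 3 were gained in DCA.

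By presence over the 4 lists, 64 genes (66.0%, against 32.1% of all genes) had an H3K27ac gene-end peak in all of them. A further 9 had it in every list but Sham: Cox4i1, Cox6c, Cox8a, Ndufa2, Ndufb10, Ndufv1, Sdha, Sdhd and Uqcr11, a pattern of 6.43% of all genes. Sdhd was the strongest of those gained in SNA, followed by Sdha (percentile 95.1), Ndufa12 (92.2), Ndufa2 (92.1), Ndufb10 (91.8), Uqcr11 (91.4), Cox6b1 (89.1), Ndufb11 (85.0), Cox8a (77.6) and Ndufv1 (76.8). Cox6b1, Ndufa12 and Ndufb11 were present in SNA and Lam and absent from Sham and DCA (3.97% of all genes). Cox7b, Ndufa1 and Ndufaf6 were present in SNA only (2.25%). Absent from SNA alone were Cox5a, Ndufa11 (fold 4.21 in Sham) and Ndufaf2 (fold 4.93), a pattern of 1.07% of all genes. Absent from DCA alone were Atp5a1, Atp5d, Atp5k and Ndufa8 (4.03%). For Atp5d this concerns the ends of its record, since within 1 kb of its annotated start H3K27ac peaks were present in all 4 lists, at fold 18.4 and percentile 99.5 in DCA. With Cox6b1, Ndufa12, Ndufb11 and the isoforms Cox6b2 and Ndufa4l2 they made up the 9 lost in DCA, of which Cox6b1 had the strongest Lam peak (fold 6.38, percentile 87.1). No gene had an H3K27ac gene-end peak after both injuries and in neither control. Of the 25 genes without an H3K27ac gene-end peak in Sham, 15 had both an H3K9ac and an ATAC peak there, and 10 had no H3K9ac peak, among them Ndufb11, Cox7b and Cox7a1. The same shares among all genes without such a peak were not counted, so whether the 15 differ from them is not known. Among the 15, Sdha, Cox4i1, Cox6c and Sdhd had Sham H3K9ac percentiles of 91.2, 93.5, 98.5 and 85.6.

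**Figure D4:**
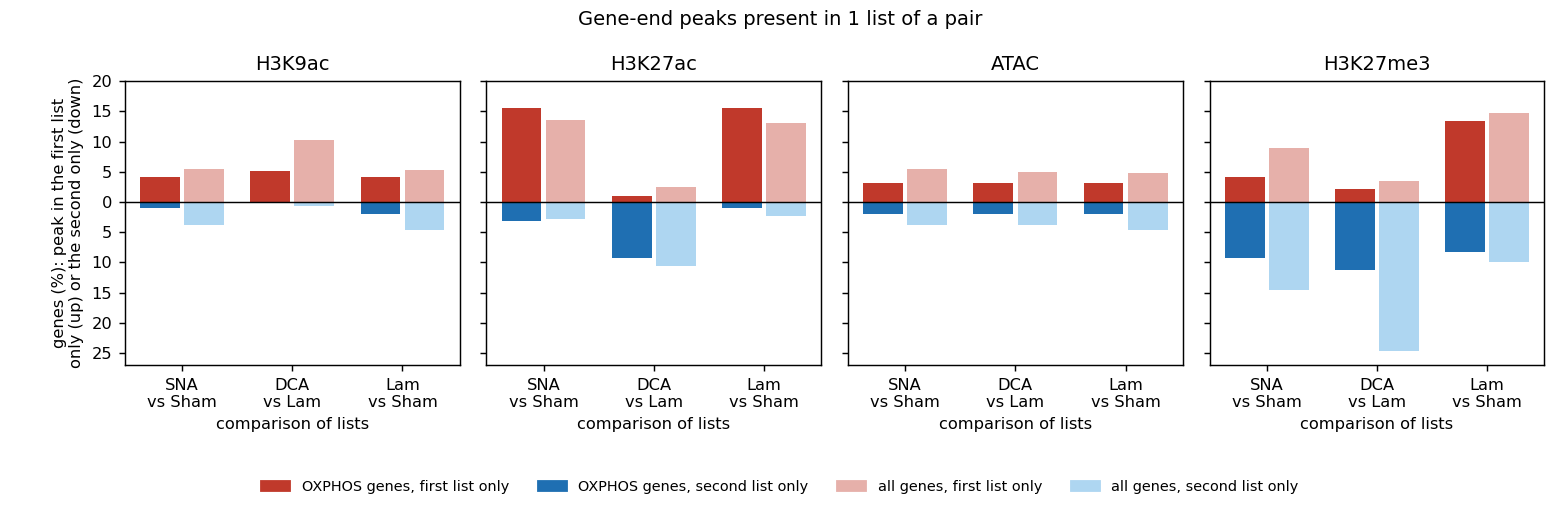
Share of genes (%) with a gene-end peak in the first list of a pair only (up) or the second list only (down), for the 97 OXPHOS genes (dark bars) and all 21887 genes (pale bars), by assay (panels) and pair of surgeries (x axis). Dark and pale bars are of similar height for H3K27ac, with 15.5% and 13.5% up in SNA against Sham, and the dark bars are the lower ones for ATAC.

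For H3K27me3, 4 genes were in SNA and not in Sham (9.0% of all genes), 9 the reverse (14.6%), 2 in DCA and not in Lam (3.48%), 11 the reverse (24.6%), 13 in Lam and not in Sham (14.7%) and 8 the reverse (9.89%). Every one of these member peaks was weak, with folds between 1.01 and 1.73 and none with a q of at most 0.05, and the highest −log10 q among them was 0.124 (Ndufa4l2 in Sham). No such peak remained at q of at most 0.05, and in a window of 5 kb 33, 25, 48 and 16 genes had one. The strongest by fold was that of Cox6a2 in Lam (fold 1.73). Uqcrb was the only gene with a peak in all 4 lists, at folds of 1.05, 1.48, 1.37 and 1.19, and Ndufs6, a complex I subunit, had peaks in SNA, Lam and DCA at folds of 1.01, 1.19 and 1.14. Ndufa4l2 was the only gene with a peak in both controls and after neither injury (folds 1.29 and 1.16, a pattern of 6.11% of all genes).

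The summits showed where the marks sat. Counting genes whose strongest gene-end peak had its summit within 1 kb of the annotated start, the median ATAC summit lay at −41, −34.5, −41 and −34 bp, just before the start. Within 150 bp of the start were 79.4%, 82.4%, 79.1% and 71.0% of the ATAC summits, against 66.3%, 66.9%, 67.3% and 66.5% for all genes. The acetyl summits lay inside the gene or further upstream. The median H3K9ac summit was at 193, 188, 235 and 213.5 bp, against 204, 191, 206 and 215 bp for all genes. The median H3K27ac summit was at 146, 182.5, 199 and 188 bp, against 80, 136, 157 and 135 bp. Only 4, 3, 4 and 5 genes had an H3K9ac summit within 150 bp of the start, that is 5.97%, 4.48%, 5.71% and 7.35%, against 14.6%, 12.5%, 15.2% and 16.6% for all genes. For H3K27ac the shares were 15.8%, 13.2%, 10.1% and 4.76%, against 14.6%, 13.6%, 14.8% and 14.1%, so those of Sham and SNA were near all genes.

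**Figure D5:**
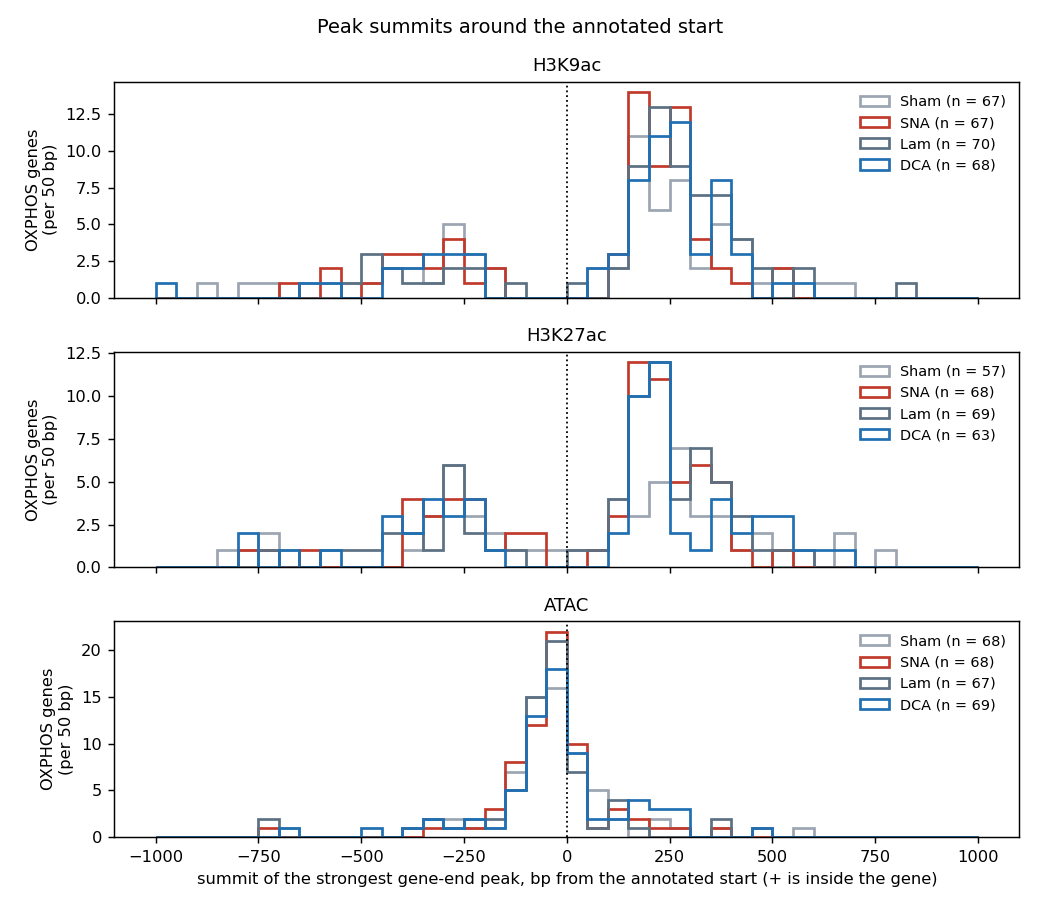
Number of OXPHOS genes by the distance (bp, bins of 50 bp) of the summit of the strongest gene-end peak from the annotated start, for H3K9ac, H3K27ac and ATAC (panels) and the 4 surgeries (line colours). ATAC summits gather at the start, with medians from −41 to −34 bp, and acetyl summits on either side of it, with most inside the gene.

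Many of these genes have a close neighbour. An end of another protein-coding gene, whether its start or its far end, lay within 1 kb of an end of 54 of the 97 genes (55.7%, against 24.8% of all genes), such as Midn at Atp5d, Rps28 at Ndufa7 and Rps2 at Ndufb10. Gene-end peaks were common with and without one. In Sham, H3K9ac peaks were present at 50 of the 54 (92.6%, against 75.6% of all genes with such a neighbour). They were present at 34 of the other 43 genes (79.1%, against 40.3% of all genes without such a neighbour). H3K27ac peaks were present at 40 of the 54 (74.1% against 62.8%) and at 32 of the 43 (74.4% against 32.9%).

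Peak strength was also read by promoter letters. The 41 genes with NRF1, ETS or YY1 letters had median H3K9ac percentiles of 94.4, 97.1, 93.0 and 93.6 and the 38 without had 87.1, 95.0, 86.6 and 93.7. H3K9ac gene-end peaks were present at 40, 41, 41 and 41 of the 41 and at 29, 31, 31 and 35 of the 38. For H3K27ac the medians were 57.5, 92.2, 81.7 and 74.8 with letters and 57.1, 88.0, 76.0 and 77.6 without. For ATAC the medians were 96.5, 96.2, 96.4 and 96.6 with letters and 97.1, 97.5, 96.5 and 96.5 without. These values are a description, and genes without a peak are not in the medians. The genes without letters include the isoforms Cox6b2, Cox7a1, Cox7b2 and Cox8b and the short record Ndufb4b. They also include Cox5a, Cox7a2 and Atp5d, whose starts lie more than 1 kb from both record ends, while Atp5g3, another such gene, has letters. The part of this make-up in the medians was not tested.

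Body peaks were few, in genes that are short: the median length was 7.18 kb, against 17.2 kb over all genes. Of 85 genes longer than 2 kb, 10, 14, 9 and 20 had an H3K9ac body peak, against 30.9%, 36.8%, 31.0% and 42.7% of all genes over that length. An H3K27ac body peak was in 17, 12, 19 and 16, against 33.7%, 33.0%, 35.9% and 32.7%, and an ATAC body peak in 30, 30, 32 and 29, against 61.9%, 65.0%, 63.1% and 63.6%. Per kb of gene body, the 85 genes had 0.0171, 0.0211, 0.0151 and 0.0453 H3K9ac peaks, against 0.0277, 0.044, 0.0271 and 0.0524 over all genes. They had 0.0181, 0.0312, 0.0372 and 0.0221 H3K27ac peaks, against 0.0224, 0.0412, 0.036 and 0.0239 over all genes, so the H3K27ac rate in Lam was near that of all genes. For ATAC the rates were 0.0624, 0.0724, 0.0613 and 0.0754, against 0.0742, 0.088, 0.0807 and 0.0813. An H3K27me3 body peak was in 11, 11, 18 and 3 genes, against 44.7%, 41.4%, 51.2% and 29.1%. Its rates were 0.0171, 0.0141, 0.0292 and 0.00402, against 0.0404, 0.0439, 0.0547 and 0.0267. Ndufaf2, the longest at 106.1 kb, had 8, 8, 7 and 8 ATAC body peaks. Sdhc had 1, 8, 4 and 2 H3K27ac body peaks, and Ndufv2, a core subunit, had 1, 6, 6 and 1. Both genes were picked after their values were seen. Their SNA and Lam counts were above their Sham and DCA counts, and the whole SNA and Lam lists were also the longer ones. Ndufa10 had no acetylation body peak in any list and 3, 5, 4 and 7 ATAC body peaks.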

How the data were processed

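H3K9ac, H3K27ac and H3K27me3 ChIP-seq and ATAC-seq of dorsal root ganglia gave 1 deposited peak list per assay and surgery, which pools the replicates. The genome build is mm10, per the submitters' processing notes; the aligner, the peak caller and its thresholds are not given in the sources used here. In each list the authors deposited, per peak, a score (not used here), a fold enrichment, a −log10 p and a −log10 q, and for H3K9ac, H3K27ac and ATAC a summit offset. The lists have no header line, so the columns were read by the standard order of their format, and the depth is unknown. ATAC lists held repeated intervals, 1 line per summit, of which the one with the largest −log10 p was kept.

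Genes came from the RefSeq table of GRCm38.p6, and promoters (250 bases before to 50 from the start) from its promoter table, which had no entry for 18 of the 97 genes. Peaks were joined to gene ends (1 kb, at least 1 bp) with Python 3.11.15, pandas 2.3.3 and numpy 2.4.6, and plotted with matplotlib 3.10.9; the join was tested on simulated data. No test was made, as no list has a replicate. The genes and lists were chosen with earlier results of these data known. Genes named with values were core subunits of each complex, the 8 isoforms, genes lacking all peaks of an assay, up to 10 gained and 10 lost per comparison and assay by −log10 p, those gained or lost after both injuries only, the 5 strongest per assay by mean percentile, and those with H3K27me3 in 3 or 4 lists. Others named were chosen after their values were seen. Alternatives were a 5 kb window, annotated starts only, a q of at most 0.05, equal list sizes, an overlap of 100 bp, and, added after seeing the data, gene ends together with annotated starts. A few single genes are not reported here by name; they remain in the counts.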

Additional observations from a re-analysis of the deposited data

Results flagged for a closer look

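The H3K27ac balance went opposite ways after the 2 injuries, at the 97 genes and at all genes alike. The number with an H3K27ac gene-end peak differed by 12 for SNA minus Sham and by -8 for DCA minus Lam, and between the control surgeries by 14 for Lam minus Sham. These were 12.4%, -8.25% and 14.4% of the 97 genes, and the same balances over all genes were 10.6%, -8.16% and 10.6%, so the shift was list-wide and near the background. The difference between the injuries was not tested, since each condition is 1 pooled list. The SNA and Lam lists were the longer ones, with 75824 and 67311 peaks against 43803 in Sham and 46489 in DCA, and their part in the result was not tested. With lists cut to equal size the values were 10 and -6.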

How the results depend on the processing

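No paired analysis was possible because each list pools its replicates, and leaving out a replicate was likewise not possible. Of 40 counts of genes, 40 stayed within 1.5 times with an overlap of 100 bp, 38 with ends and annotated starts together, 34 with equal list sizes, 23 with a 5 kb window, 23 with annotated starts only (79 genes) and 22 with q at most 0.05. The others follow, as genes in the first list and not in the second. For ends with annotated starts, chosen after seeing the data, H3K9ac gave 3 for DCA not Lam and 1 for Sham not Lam. For equal list sizes, H3K27ac gave 3 for DCA not Lam and 2 for Sham not Lam, H3K9ac gave 3 for DCA not Lam, 1 for Lam not DCA and 2 for Sham not SNA, and H3K27me3 peaks were at 3 genes in SNA. For q at most 0.05, ATAC gave 5 for SNA not Sham, 1 for Sham not SNA, 5 for DCA not Lam, 1 for Lam not DCA and 1 for Sham not Lam. There H3K9ac gave 10 for SNA not Sham, 2 for Sham not SNA and 8 for Lam not Sham, and H3K27me3 gave 0 in all 6 directions and 0 genes in each list. For annotated starts only, H3K9ac gave 2 for DCA not Lam and 0 for Sham not Lam, and ATAC gave 1 for SNA not Sham, 1 for Sham not SNA, 0 for Lam not DCA, 1 for Lam not Sham and 1 for Sham not Lam. There H3K27me3 gave 1 for SNA not Sham, 4 for Sham not SNA, 0 for DCA not Lam, 5 for Lam not DCA, 5 for Lam not Sham and 4 for Sham not Lam, with 4, 1, 5 and 0 genes in Sham, SNA, Lam and DCA. For the 5 kb window, H3K27ac gave 8 for SNA not Sham, 5 for Lam not DCA and 8 for Lam not Sham, and H3K9ac gave 1 for DCA not Lam and 1 for Sham not Lam. There ATAC gave 1 for Sham not SNA, 0 for Lam not DCA and 1 for Lam not Sham, and H3K27me3 gave 9 for SNA not Sham, 17 for Sham not SNA, 1 for DCA not Lam, 33 for Lam not DCA and 24 for Lam not Sham, with 33, 25, 48 and 16 genes. The cause of these differences was not tested, beyond the fewer genes with annotated starts and the larger window. The H3K27ac balance kept its sign under every setting listed, from 6 to 13 for SNA minus Sham, -8 to -4 for DCA minus Lam and 7 to 14 for Lam minus Sham. The unknown depth of each list limits what an absent peak means.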
